A study of Rattus norvegicus with 43 samples.

Results

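Mitochondrial ribosomal proteins were followed in 73 genes, chosen as the genes whose symbol in the platform annotation starts with Mrpl (46 genes, large subunit by name) or Mrps (27 genes, small subunit by name) and continues with a digit. They were 73 of 14218 genes that had a probe set assigned to 1 gene, and were measured by 97 such probe sets, and where a gene had several, the brightest on average over the samples was used. All 73 passed the filter on low signals that left 10650 genes for testing. Each one was above the median of the array on all 43 arrays, so the filter removed none of them. The study asked how the transcriptome of rat primary hepatocytes (RPH) departs from that of the liver during culture. Untreated male Sprague Dawley rats, 3 in number, each gave all 5 groups: RPH cultured for 4, 24 or 48 h on collagen in William's E medium with insulin, transferrin and dexamethasone; the freshly isolated cell pellet (RPH 0 h); and a piece of the same animal's liver that was tied off before perfusion (Liver). Serum was present in the medium for the first 4 h only, and the medium also held glutamate and gentamicin. Untreated means that no group received a test compound, and the rats were given pentobarbital before they were killed. Total RNA was hybridized to Affymetrix RG230-2 arrays in technical replicates, which were averaged to 1 value per rat and group, so every group holds 3 samples.

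Mitochondria make a small set of their own proteins, subunits of the respiratory chain and of ATP synthase, on a ribosome of their own. Its RNA is transcribed from mitochondrial DNA, but all of its proteins are encoded in the nucleus, made in the cytosol and imported. A core of these proteins has counterparts in the bacterial ribosome, and the rest are particular to mitochondria. The large subunit forms the peptide bond and releases the chain through an exit tunnel, and the small subunit reads the codons. The positions given below are those seen in human and pig mitochondrial ribosomes, where the proteins encoded by Mrps30 and Mrps18a lie in the large subunit in spite of their names. Hepatocytes are rich in mitochondria.

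Promoters are shown for 5 genes because members were called in both directions after plating. Mrps31, Mrpl47 and Mrps18b were higher at 4 h than at 0 h, whereas Mrpl2 and Mrpl36 were lower. The sequences are the RefSeq promoters of assembly GRCr8, from 250 bases before the start of the gene to 50 bases after it, and 59 of the 73 genes had an entry, 2 of them (Mrpl14 and Mrps21) with a pair of promoters. Capitals mark matches on either strand to GCGCA, any base and GCGC in direct succession (NRF1), CCGGAAG (the ETS family, which includes GABPA) or AAGATGGCG (YY1), the letters that were searched for factors known to regulate mitochondrial genes.
Mrps31, chr16:76324016-76324315, minus strand: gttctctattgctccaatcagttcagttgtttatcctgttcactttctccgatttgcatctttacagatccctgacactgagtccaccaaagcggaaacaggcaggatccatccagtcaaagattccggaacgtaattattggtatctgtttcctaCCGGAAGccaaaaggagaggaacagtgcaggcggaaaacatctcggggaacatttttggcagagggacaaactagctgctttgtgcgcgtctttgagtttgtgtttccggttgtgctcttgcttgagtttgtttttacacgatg
Mrpl47, chr2:117447312-117447611, minus strand: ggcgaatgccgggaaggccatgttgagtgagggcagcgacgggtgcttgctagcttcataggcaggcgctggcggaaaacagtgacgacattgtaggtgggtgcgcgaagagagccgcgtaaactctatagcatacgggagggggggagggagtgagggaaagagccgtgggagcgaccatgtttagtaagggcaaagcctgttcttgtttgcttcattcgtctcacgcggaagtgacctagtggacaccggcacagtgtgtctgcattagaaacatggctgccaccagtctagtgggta
Mrps18b, chr20:2842756-2843055, plus strand: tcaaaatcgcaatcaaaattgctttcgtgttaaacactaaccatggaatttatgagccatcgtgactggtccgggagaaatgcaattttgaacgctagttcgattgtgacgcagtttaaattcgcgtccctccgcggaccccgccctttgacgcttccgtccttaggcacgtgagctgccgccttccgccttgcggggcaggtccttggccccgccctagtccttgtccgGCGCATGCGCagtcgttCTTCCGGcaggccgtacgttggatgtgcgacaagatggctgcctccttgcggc
Mrpl2, chr9:21834558-21834857, minus strand: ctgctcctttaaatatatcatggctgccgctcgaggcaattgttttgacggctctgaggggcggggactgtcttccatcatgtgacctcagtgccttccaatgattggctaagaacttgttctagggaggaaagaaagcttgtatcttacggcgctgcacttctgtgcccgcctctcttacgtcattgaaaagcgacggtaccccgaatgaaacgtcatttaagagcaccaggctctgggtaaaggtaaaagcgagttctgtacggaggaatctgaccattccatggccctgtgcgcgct
Mrpl36, chr1:31795072-31795371, minus strand: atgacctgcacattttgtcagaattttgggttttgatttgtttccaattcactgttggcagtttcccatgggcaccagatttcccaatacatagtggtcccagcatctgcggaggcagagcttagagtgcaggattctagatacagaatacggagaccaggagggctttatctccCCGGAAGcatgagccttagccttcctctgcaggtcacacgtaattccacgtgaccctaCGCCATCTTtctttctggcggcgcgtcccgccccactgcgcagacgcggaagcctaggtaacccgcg

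Of these, Mrps31 held 1 ETS match, Mrps18b 1 NRF1 and 1 ETS match, and Mrpl36 1 ETS and 1 YY1 match, so matches occurred both in genes that were higher and in a gene that was lower at 4 h. Mrpl47 and Mrpl2 held none of these letters. Counting a gene once, with a match in any of its promoters, 33.9% of the 59 members held the ETS letters, against 18.5% of 8900 genes tested that had an entry. The NRF1 letters were found for 15.3% of members and 10.4% of genes tested, and the YY1 letters for 13.6% and 3.98%. An NRF1 or ETS match occurred in 25 of the 59 members (42.4%, against 26.4% of genes tested). The E-box CACGTG, a site that Myc can bind, was found for 6 of 59 members (10.2%) and for 890 of 8900 genes tested. A gene on the opposite strand started within 1000 bases upstream of 18 members (30.5%, against 16.7% of genes tested). Mrpl46 and Mrps11 were such a pair, with 234 bases between their starts, and the start of Mrpl47 lay 244 bases from that of Ndufb5, a subunit of respiratory complex I. These shares are a description, and a match of letters is not evidence of binding.

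All levels are MAS5 signals, linear intensities that the authors scaled to a trimmed mean of 500 on each array. They have no unit of molecules and depend on each probe set, so they compare samples and not genes. The mean signal of a member ran from 433 to 5572 in liver and from 536 to 9538 at 48 h. By mean log2 signal over the 15 samples the probe set of Mrpl17, a core protein of the large subunit, was the brightest and that of Mrpl47 the dimmest, which does not order their transcripts. The standard deviation (SD) of a member between the 3 rats of a group, as a median over members, was between 0.14 (48 h) and 0.20 (Liver) on the log2 scale. Between technical arrays of 1 rat it was between 0.07 and 0.16. Differences below are log2 of the first group over the second with the standard error (SE) of limma, and a call means an adjusted p under 0.05 (Benjamini-Hochberg over the 10650 genes tested). With 3 rats a group, the number of samples limits the precision, and a member needed a difference of at least 0.36 to be called in any comparison.

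Markers of blood, vessel and macrophage cells gave less signal in the pellet than in the liver piece. Signals summed over 11 hepatocyte markers were 316406 to 381783 at 0 h and 365219 to 396230 in liver. Those summed over 10 endothelial markers were 8087 to 12056 at 0 h and 13446 to 16425 in liver, and those of 9 Kupffer cell and macrophage markers 12719 to 15263 and 20972 to 27030. Erythroid markers (5 tested) summed to 203 to 1792 at 0 h and 7830 to 59323 in liver. Fewer cells of a type and less RNA per cell cannot be told apart in such samples. At 48 h the endothelial sum was 521 to 1114 and the hepatocyte sum 184905 to 203384. Markers of stellate cells and fibroblasts (12 tested) summed to 780 to 2299 at 4 h, 2729 to 3008 at 24 h and 5463 to 7055 at 48 h, against 2630 to 6611 at 0 h. These markers moved in both directions. Acta2 had 1062, 574 and 940 at 48 h, against 174, 67.4 and 147 at 0 h. Lrat had 26.5, 8.52 and 57.4 at 48 h, against 658, 221 and 718 at 0 h. Col3a1 had 815, 343 and 781 at 48 h, against 3387, 1690 and 4757 at 0 h. Markers of cholangiocytes (3 tested) summed to 1892 to 3138 at 4 h and 2204 to 3133 at 48 h, against 956 to 1102 at 0 h. Most of this sum was Epcam, with 2186, 2126 and 3010 at 48 h, against 854, 901 and 935 at 0 h. Krt19 went the other way, with 31.0, 12.1 and 51.4 at 48 h, against 84.2, 57.5 and 148 at 0 h. The ratio of 3′ to 5′ signal of the beta-actin control, a measure of RNA integrity, also moved with time: 3.21 to 6.96 in liver, 3.16 to 4.30 at 0 h, 2.85 to 3.12 at 4 h, 2.23 to 2.5 at 24 h and 1.95 to 2.46 at 48 h. The parts of cell composition and of RNA integrity in the results were not tested, beyond a fit with this ratio as a covariate. That fit is given as counts and not for each gene named below. It kept 17 of 22 calls of members at 4 h vs 0 h. At 24 h vs 0 h it kept 3 of 17, and at 48 h vs 0 h 4 of 13. The ratios of liver and 0 h did not overlap with those at 4, 24 or 48 h. The ratio and the time in culture therefore cannot be told apart by this fit.

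Taken over all 73 genes, the mitochondrial ribosomal proteins moved little, with medians slightly below 0 h at 4 h and slightly above it at 24 and 48 h. The median difference over the 73 members was −0.17 for 4 h vs 0 h (all genes tested, −0.15), 0.21 for 24 h vs 0 h (all genes tested, 0.09) and 0.19 for 48 h vs 0 h (all genes tested, 0.12). Between 24 h and 4 h it was 0.32, against 0.14 for all genes tested. The rats differed in this. The median of 4 h vs 0 h was −0.00 for rat 1 but −0.26 for rat 2 and −0.25 for rat 3, and that of 48 h vs 0 h was 0.28 for rat 1, 0.25 for rat 2 and −0.02 for rat 3. For 24 h vs 4 h the medians were 0.20, 0.47 and 0.30, above 0 in each rat, with 53, 63 and 53 of the 73 members higher at 24 h.

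**Figure D1:**
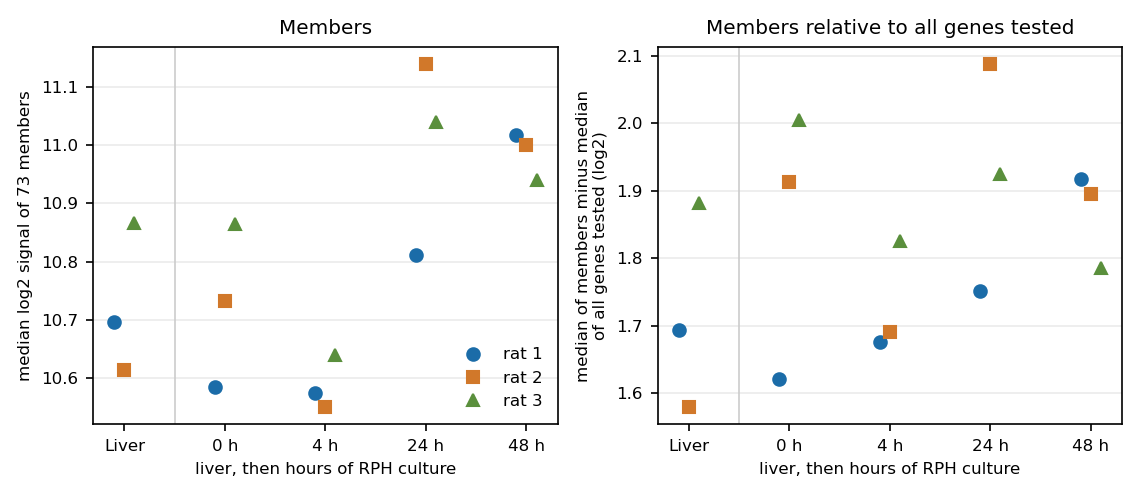
Median log2 signal of the 73 members in each sample (left) and the same minus the median of all genes tested (right), for liver and for 0, 4, 24 and 48 h of RPH culture; each point is 1 rat. The 3 samples at 4 h lie between 10.55 and 10.64 in the left panel and those at 24 h between 10.81 and 11.14, and the 0 h samples of rats 1 and 3 are 10.58 and 10.86.

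The share of members called was below that of all genes tested in these comparisons. At 4 h vs 0 h, 7 members rose and 15 fell (30.1% of members, against 38.9% of all genes tested, of which 16.3% rose and 22.6% fell). At 24 h vs 0 h, 15 rose and 2 fell (23.3% of members, against 41.5% of all genes tested, 24.1% upward and 17.3% downward). At 48 h vs 0 h, 12 rose and 1 fell (17.8% of members, against 44.1% of all genes tested, 26.6% upward and 17.5% downward). At 24 h vs 4 h, 25 rose and 2 fell (37.0% of members, against 39.8% of all genes tested, 26.3% upward and 13.5% downward). A difference of more than 2-fold was seen in 3 members at 4 h vs 0 h, in none at 24 h vs 0 h and in 1 at 48 h vs 0 h, where 20.2%, 22.9% and 24.3% of all genes tested passed that size. Cytosolic ribosomal proteins (41 genes tested) gave 3 rises and no fall at 4 h, 13 and 0 at 24 h and 6 and 0 at 48 h, each vs 0 h. The nuclear genes for subunits of oxidative phosphorylation (76 tested), several of which join the products of the mitochondrial ribosome, were called mostly downward at each time, with 0 rises and 9 falls at 4 h, 1 and 12 at 24 h and 3 and 16 at 48 h. The share of these 76 genes that fell was below that of all genes tested at 4 h (22.6%) and 24 h (17.3%) and above it at 48 h (17.5%). Among the 41 cytosolic genes, the share that rose was above that of all genes tested at 24 h (24.1%) only. The median difference at 48 h vs 0 h was 0.19 for the mitochondrial ribosomal proteins, 0.22 for the cytosolic ones and −0.23 for oxidative phosphorylation. The difference between these sets was not tested.

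**Figure D2:**
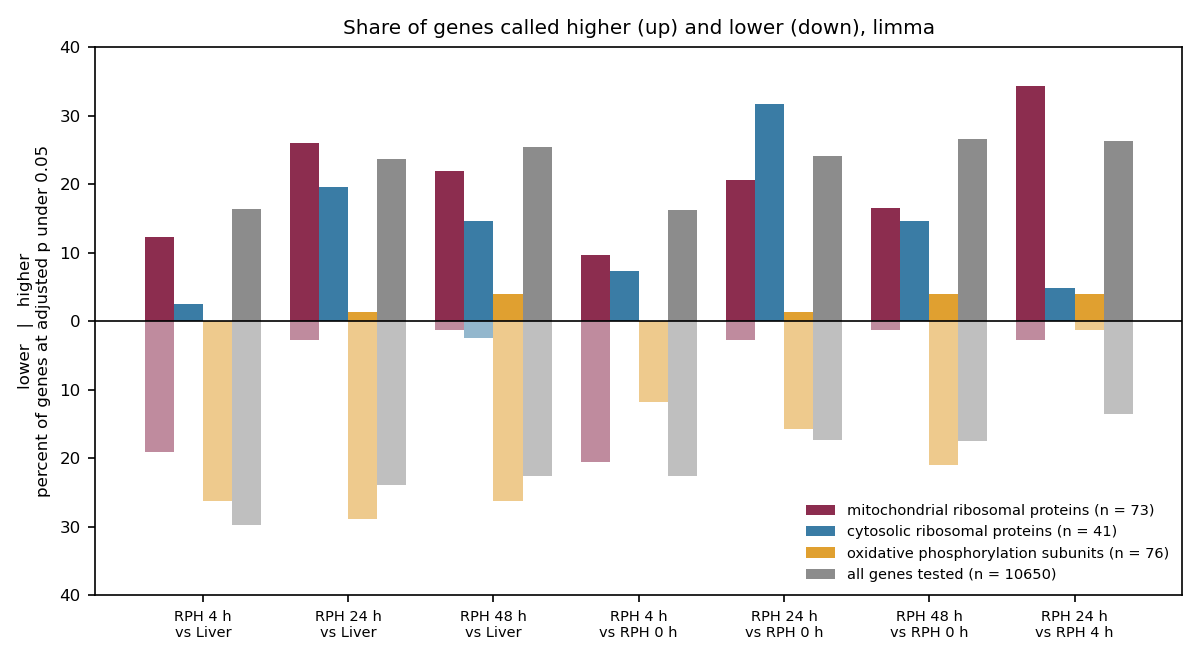
Percent of genes called higher (upward, full colour) and lower (downward, pale) by limma in 7 comparisons, for mitochondrial ribosomal proteins (73), cytosolic ribosomal proteins (41), oxidative phosphorylation subunits (76) and all genes tested (10650). At 24 h vs 0 h the calls are 15 higher and 2 lower, 13 and 0, and 1 and 12 in the first 3 sets.

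**Figure D3:**
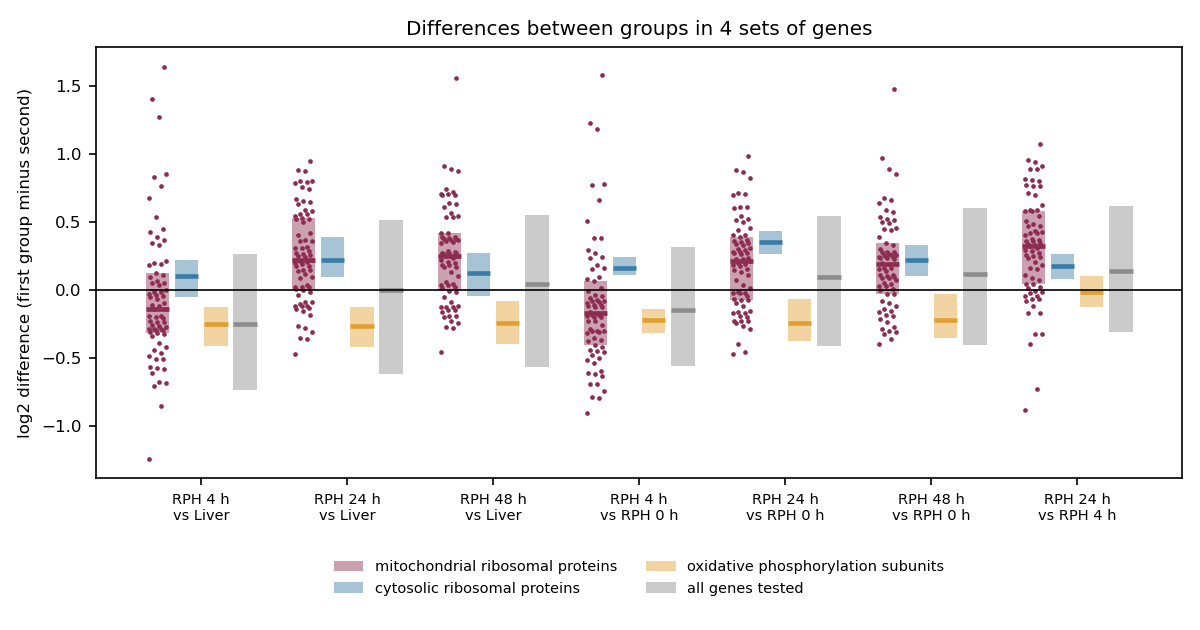
Log2 differences in the same comparisons: thick lines are medians, bars span the interquartile range, and points are the 73 members. The members spread from −0.91 to 1.59 at 4 h vs 0 h around a median of −0.17.

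Members were called in both directions at 4 h. By then, Mrps31, a protein particular to the mitochondrial small subunit, rose 3.00-fold over 0 h, and Mrpl47, the counterpart of bacterial L29 at the mouth of the exit tunnel, rose 2.35-fold. Mrps6, the counterpart of bacterial S6, rose 2.28-fold. Core proteins of the large subunit fell at the same time, led by Mrpl2 (0.533 of the level at 0 h) and Mrpl15 (0.575). Of 27 core large subunit genes (Mrps18a counted among them) 1 rose and 8 fell, and of 21 large subunit genes particular to mitochondria 2 rose and 2 fell. Of 16 core small subunit genes 3 rose and 4 fell, and of 9 particular to mitochondria 1 rose and 1 fell. Over all genes tested, 16.3% rose and 22.6% fell at 4 h vs 0 h, and the difference between these classes was not tested.

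Mrps31 gave signals of 1317, 1133 and 1659 at 4 h in rats 1, 2 and 3, against 396, 429 and 538 at 0 h. The groups were far apart in all 3 animals (1.59 ± 0.24, adjusted p = 0.000196, limma). At 24 h it was below its 4 h level, with 764, 738 and 693 (−0.89 ± 0.24, adjusted p = 0.00919, and 0.0508 without rat 2), and at 48 h it had 631, 815 and 671. Both later times were above 0 h (0.70 ± 0.24 and 0.64 ± 0.24, adjusted p of 0.0306 and 0.0428), but each of these calls held in only 2 of 9 fits that left out a rat or a sample (adjusted p up to 0.18 without rat 1 and up to 0.295 without rat 2). Mrpl47 had 1403, 1283 and 914 at 4 h, against 537, 491 and 484 at 0 h (1.23 ± 0.21, adjusted p = 0.000481). Its rise was transient: the signals were 799, 730 and 614 at 24 h and 542, 523 and 542 at 48 h, the last being within the range of liver (579, 328 and 466). The difference between 24 h and 4 h was −0.73 ± 0.21 (adjusted p = 0.0127), a call lost in 5 of 9 fits that left out a rat or a sample (adjusted p of 0.0639, 0.0728 and 0.057 without rats 1, 2 and 3, 0.0549 without the 4 h sample of rat 1 and 0.0547 without the 24 h sample of rat 3). At 24 h vs 0 h Mrpl47 differed by 0.50 ± 0.21 (adjusted p = 0.0711, and 0.0392 when the rat was added as a block).

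Mrps6 rose by 4 h and was still above 0 h at 24 and 48 h. It had 1230, 1374 and 1857 at 4 h, 925, 1247 and 1393 at 24 h and 1483, 1885 and 2060 at 48 h, against 490, 696 and 779 at 0 h. No sample of a plated culture overlapped with the 0 h samples. The difference from 0 h was 1.19 ± 0.23 at 4 h (adjusted p = 0.00116), 0.87 ± 0.23 at 24 h (adjusted p = 0.00771, or 0.0823 without rat 2) and 1.48 ± 0.23 at 48 h (adjusted p = 0.000149). The step from 24 h to 48 h was 0.61 ± 0.23, with an adjusted p of 0.177, which became 0.0265 when the rat was added as a block. In RefSeq (GRCr8) Slc5a3, a myo-inositol transporter, lies inside the span of Mrps6 on the same strand. Its own probe set gave 1500, 974 and 1460 at 4 h, against 284, 117 and 139 at 0 h, and 288, 132 and 413 at 48 h, which overlapped with 0 h. At 48 h, where Mrps6 was highest, Slc5a3 differed from 0 h by 0.59 ± 0.45 (adjusted p = 0.309), and whether transcripts of the locus are shared between the 2 probe sets was not tested.

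The remaining rises at 4 h were in the small subunit protein Mrps18b (0.78 ± 0.17, adjusted p = 0.0032, or 0.0692 without rat 1), in Mrps2, the counterpart of bacterial S2 (0.77 ± 0.23, adjusted p = 0.0179), in Mrpl45, which anchors the ribosome to the inner membrane (0.66 ± 0.18, adjusted p = 0.0101) and in Mrpl46 of the central protuberance (0.38 ± 0.13, adjusted p = 0.0351). The call of Mrpl45 was lost without rat 1 or rat 2 (adjusted p of 0.121 and 0.154). That of Mrps2 was lost without rat 2 or rat 3, the 0 h sample of rat 2 or the 4 h sample of rat 3 (adjusted p of 0.163, 0.0568, 0.0812 and 0.0639). Mrpl46 kept its call in 2 of 9 such fits, with adjusted p values up to 0.299 without rat 1.

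Mrpl2, the counterpart of the bacterial L2 protein near the catalytic centre, had 675, 767 and 754 at 4 h, against 1222, 1391 and 1513 at 0 h. Each 4 h sample was below every other sample of the study (−0.91 ± 0.13, adjusted p = 0.000143). At 24 h it had 1155, 1211 and 1232 (24 h vs 4 h, 0.71 ± 0.13, adjusted p = 0.000782). Mrpl15, another core protein and one of the brightest members, had 3546, 3552 and 3298 at 4 h, against 5484, 5781 and 6884 at 0 h (−0.80 ± 0.14, adjusted p = 0.000633). Its later signals were in between, with 4075, 4770 and 4173 at 24 h and 4653, 4875 and 4222 at 48 h. Mrpl18, which sits in the central protuberance, had 2438, 2443 and 1522 at 4 h, against 3514, 4436 and 2999 at 0 h (−0.79 ± 0.23, adjusted p = 0.0172). Its call was the least firm of these 3, since it was lost without any of the 3 rats (adjusted p of 0.0755, 0.0771 and 0.0573), without the 0 h sample of rat 2 (0.0715) and without the 4 h sample of rat 3 (0.0782), and was also lost with each array centred on its median (0.0628).

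Falls in the large subunit also included Mrpl34 and Mrpl36. Mrpl36, the counterpart of bacterial L36, had 1015, 1184 and 1174 at 4 h, against 1536, 1916 and 1734 at 0 h (−0.62 ± 0.16, adjusted p = 0.00909, or 0.0612 and 0.0747 without rats 1 and 3). Mrpl34, the counterpart of bacterial L34, had 500, 573 and 402 at 4 h, against 902, 743 and 732 at 0 h (−0.70 ± 0.16, adjusted p = 0.0047, or 0.0911 without rat 1). In the small subunit, Mrps12 of the decoding centre fell by 0.60 ± 0.16 on the log2 scale (adjusted p = 0.0105, or 0.0774 and 0.0999 without rats 1 and 3). The other falls, in Mrpl13, Mrpl14, Mrpl16, Mrpl39, Mrpl51, Mrps5, Mrps16, Mrps21 and Mrps33, were between −0.37 and −0.74. Of the 22 calls at 4 h vs 0 h, 6 held in all 9 fits that left out a rat or a sample (Mrps31, Mrpl47, Mrps6, Mrpl2, Mrpl15 and Mrpl51). After centring on array medians 11 held, and with the actin ratio as a covariate 17 held. The count of falls was 4, 9 and 6 without rats 1, 2 and 3, 9 without the 0 h sample of rat 2 and 5 after centring, and the rises were 4 without rat 1 or rat 2. After centring, 1583 of the 10650 genes tested fell at 4 h vs 0 h.

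**Figure D4:**
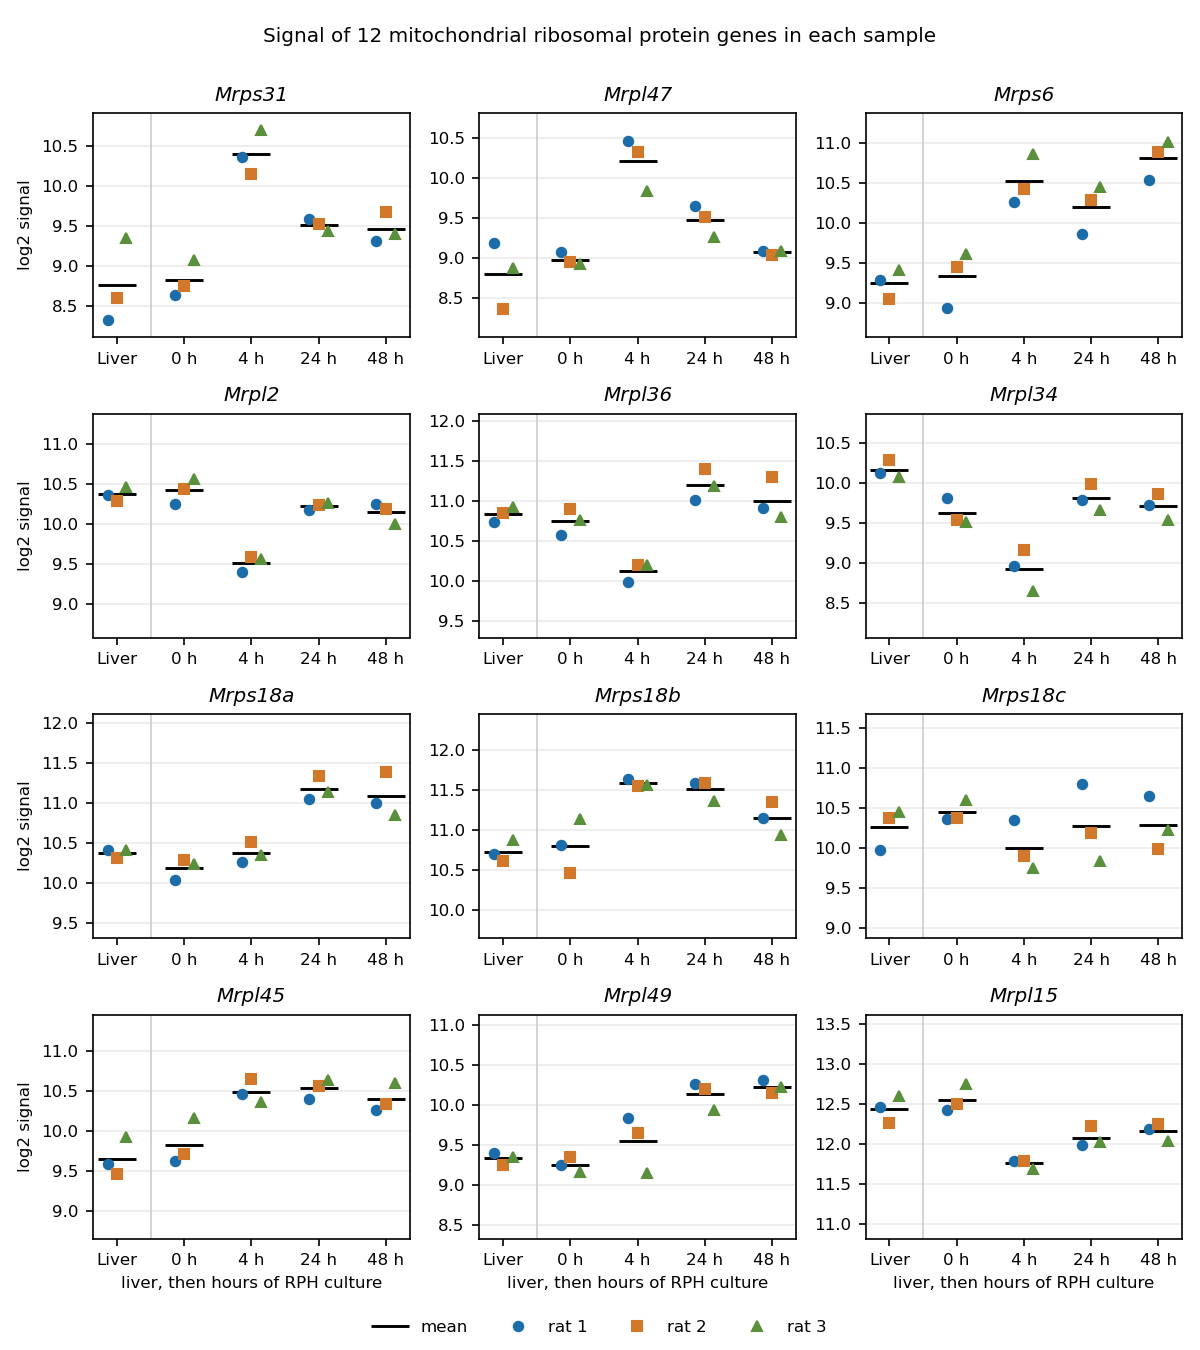
Log2 signal of 12 members in each of the 15 samples; points are rats, dashes are group means over 3 rats, and every panel spans the same range of 2.8. Mrps31 and Mrpl47 peak at 4 h, Mrpl2, Mrpl34, Mrpl36 and Mrpl15 have their lowest values there, and Mrps18a and Mrpl49 are highest at 24 and 48 h.

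Between 4 h and 24 h most of the movement was upward, and several genes that had fallen came back. Mrpl36 showed the largest rise, with 2065, 2714 and 2334 at 24 h, against 1015, 1184 and 1174 at 4 h (1.07 ± 0.16, adjusted p = 0.000219). Mrpl55, particular to the mitochondrial large subunit, had 3478, 4702 and 4694 at 24 h, against 2266, 2011 and 2318 at 4 h (0.95 ± 0.19, adjusted p = 0.00154). The small subunit protein Mrps21, the counterpart of bacterial S21, had 4464, 3388 and 4874 at 24 h, against 2309, 2263 and 1993 at 4 h (0.94 ± 0.15, adjusted p = 0.000346). In these 3 genes no 24 h sample overlapped with a 4 h sample. Mrpl13 (0.91), Mrpl34 (0.89), Mrps17 (0.89), Mrpl39 (0.82) and Mrpl22 (0.81) followed. The 2 falls were those of Mrps31 and Mrpl47. Of 27 core large subunit genes 11 rose and 1 fell, of 21 large subunit genes particular to mitochondria 8 rose, and of 16 core small subunit genes 6 rose, whereas among 9 small subunit genes particular to mitochondria none rose and 1 fell. Over all genes tested, 26.3% rose and 13.5% fell at 24 h vs 4 h. Of the 27 calls, 9 held in all 9 fits that left out a rat or a sample (Mrpl2, Mrpl13, Mrpl34, Mrpl36, Mrpl39, Mrpl55, Mrps12, Mrps18a and Mrps21). The 25 rises became 16, 14 and 11 without rats 1, 2 and 3, and 14 after centring of each array on its median. After that centring 2146 of the 10650 genes tested rose.

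**Figure D5:**
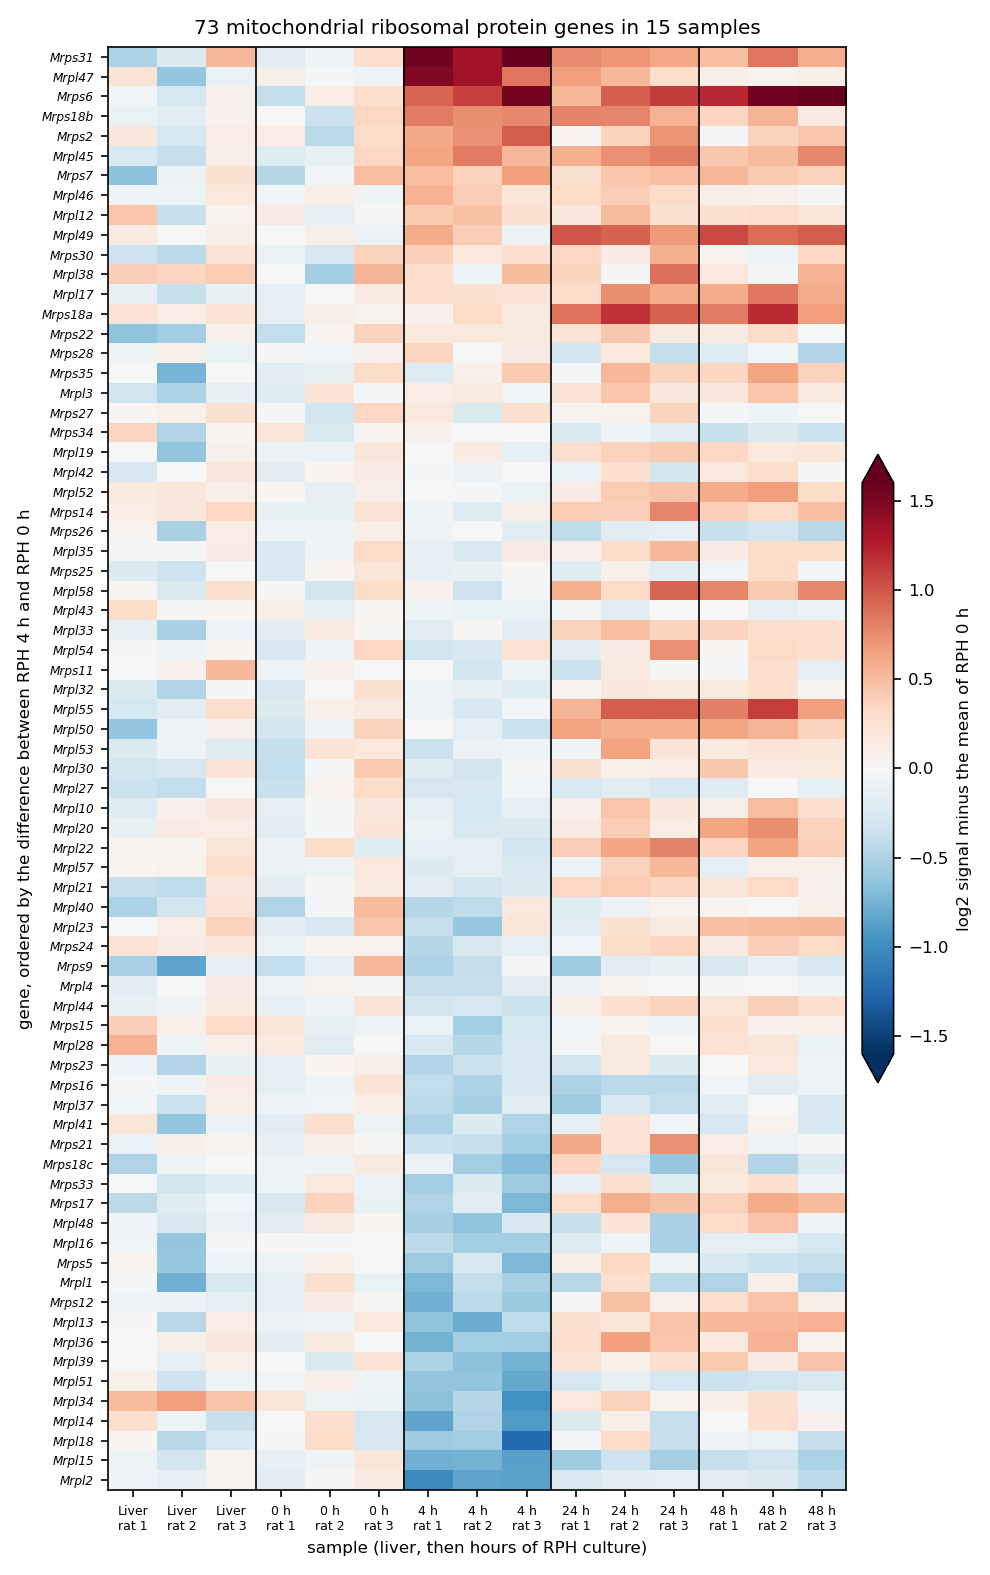
Log2 signal of the 73 members in the 15 samples minus the mean of RPH 0 h, with genes ordered by the difference between 4 h and 0 h; colours saturate at 1.6 either way. The bottom rows are lowest at 4 h in all 3 rats, and most of them are close to the 0 h level or above it at 24 and 48 h.

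After 24 and 48 h the members above 0 h were mostly other genes than those that led at 4 h. Mrps18a, a counterpart of bacterial S18 that lies in the large subunit, had 2135, 2609 and 2254 at 24 h and 2064, 2684 and 1861 at 48 h, against 1056, 1256 and 1217 at 0 h. The difference was 0.99 ± 0.16 at 24 h (adjusted p = 0.000228) and 0.89 ± 0.16 at 48 h (adjusted p = 0.000446). Mrpl49, particular to the mitochondrial large subunit, had 1227, 1178 and 984 at 24 h and 1270, 1134 and 1195 at 48 h, against 610, 651 and 575 at 0 h (0.88 ± 0.17 and 0.97 ± 0.17, adjusted p of 0.00101 and 0.00042). Mrpl55 had 4182, 5174 and 3767 at 48 h, against 2050, 2527 and 2652 at 0 h (0.86 ± 0.19, adjusted p = 0.00268, or 0.0525 without rat 2). Mrpl17 had 9004, 10724 and 8985 at 48 h, against 5395, 5964 and 6566 at 0 h (0.68 ± 0.15, adjusted p = 0.00226).

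Mrpl15 and Mrps16 ran against this direction. Mrpl15 remained below 0 h at 24 h (−0.48 ± 0.14, adjusted p = 0.0148) and at 48 h (−0.40 ± 0.14, adjusted p = 0.0341), and no sample of these groups reached the 0 h samples. The 48 h call held in 2 of 9 fits that left out a rat or a sample (adjusted p up to 0.315 without rat 3) and the 24 h call in 5 of 9 (up to 0.165 without rat 3). Mrps16, the counterpart of bacterial S16, had 2549, 2686 and 2688 at 24 h, against 3273, 3453 and 4214 at 0 h (−0.46 ± 0.13, adjusted p = 0.0141, and up to 0.13 without rat 3), and 3526, 3217 and 3420 at 48 h.

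The 15 rises at 24 h vs 0 h became 5, 5 and 9 without rats 1, 2 and 3, 8 without the 0 h sample of rat 1 or the 24 h sample of rat 3, 7 in a fit of those 2 groups alone and 4 with the actin ratio as a covariate. The 12 rises at 48 h vs 0 h became 5 and 6 without rats 1 and 2, and 4 with that covariate. Mrps18a and Mrpl49 were called at both times in all 9 fits that left out a rat or a sample. Between 48 h and 24 h no member was called by limma (4.28% of all genes tested, 2.51% upward and 1.77% downward), while 7 had an unadjusted p under 0.05 (4 higher, 3 lower). The 4.28% is for adjusted p, and no share of all genes is given for the unadjusted threshold. The largest of the 7 differences besides that of Mrps6 was a fall of Mrps21, with 3172, 2765 and 2903 at 48 h, against 4464, 3388 and 4874 at 24 h (−0.51 ± 0.15, adjusted p = 0.0856).

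By the probe sets used, the 3 S18 paralogs, alternative versions of 1 bacterial protein, each took a course of their own. Mrps18a had 1228, 1464 and 1312 at 4 h, which overlapped with 0 h (0.18 ± 0.16, adjusted p = 0.381), and its rise passed the test at 24 h. Mrps18b, in the small subunit, had 3179, 2990 and 3033 at 4 h and 3087, 3076 and 2636 at 24 h, against 1797, 1413 and 2249 at 0 h. Its 24 h call (0.71 ± 0.17, adjusted p = 0.00501) was lost without rat 1 or rat 2 (0.0874 and 0.0869). At 48 h it had 2270, 2616 and 1965, which overlapped with 0 h (0.34 ± 0.17, adjusted p = 0.125). Mrps18c, the third of them, was not called in any comparison. Its signals were 1304, 959 and 862 at 4 h and 1602, 1011 and 1196 at 48 h, against 1321, 1332 and 1545 at 0 h, and its rats were further apart at 24 h (SD of 0.48 on the log2 scale) than in any other member. Another probe set of Mrps18c that passed the filter was higher at 24 and 48 h than at 0 h in each rat. Its log2 signals were 8.61, 9.09 and 8.56 at 24 h and 8.67, 9.12 and 8.54 at 48 h. They were 8.47, 8.13 and 8.43 at 0 h. The probe set used had lower means at these times (1237 and 1247, against 1396 at 0 h), so the course of Mrps18c is uncertain. The difference between the paralogs was not tested.

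At the polypeptide exit, 2 of 4 genes rose at 4 h vs 0 h (Mrpl45 and Mrpl47), as described, where 16.3% of all genes tested rose. Mrpl45 then held its level, with 1351, 1506 and 1589 at 24 h and 1227, 1294 and 1542 at 48 h, against 787, 833 and 1140 at 0 h (0.70 ± 0.18 and 0.57 ± 0.18, adjusted p of 0.0062 and 0.0186). The 24 h call was lost without rat 1 or rat 2 (0.0726 and 0.087) and the 48 h call without rats 1 and 2, the 0 h samples of rats 1 and 2 and the 48 h sample of rat 3 (0.129, 0.13, 0.0758, 0.0633 and 0.0776). Mrpl22, which lines the tunnel, overlapped with 0 h at 4 h and was called at 24 h. It had 2611, 3077 and 3442 at 24 h, against 1809, 1781 and 1596 at 4 h (0.81 ± 0.16, adjusted p = 0.00153, and 0.0516 without rat 3). The difference from 0 h at 24 h was 0.61 ± 0.16 (adjusted p = 0.00866), a call lost without rat 1 or rat 3 (0.0528 and 0.17). Mrpl23, next to the exit, had 2843, 2895 and 2925 at 48 h, against 1795, 1702 and 2772 at 0 h (0.50 ± 0.23, adjusted p = 0.0887, and 0.0326 in the blocked fit). The stalk, which recruits translation factors, did not yield a call in its 2 genes. Mrpl12 had 4664, 4828 and 4120 at 4 h, against 3809, 3146 and 3522 at 0 h (0.38 ± 0.18, adjusted p = 0.117), and Mrpl10, which holds Mrpl12 on the ribosome, had 1312, 1696 and 1421 at 24 h, against 1137, 1029 and 1137 at 4 h (0.42 ± 0.16, adjusted p = 0.0545, and 0.0273 in the blocked fit). In the central protuberance Mrpl38, Mrpl40 and Mrpl48 gave no call, with differences at 4 h vs 0 h of 0.24, −0.23 and −0.48. A further probe set of Mrpl40 that passed the filter went the other way, so its direction is uncertain. The log2 signals of that probe set were 8.75, 8.52 and 8.52 at 4 h, against 8.20, 8.11 and 8.42 at 0 h.

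Against liver the balance of rises and falls depended on the scaling. At 0 h limma called no member (0.573% of all genes tested, 0.141% upward and 0.432% downward), and 1 had an unadjusted p under 0.05. This was Mrpl34, with 902, 743 and 732 at 0 h, against 1120, 1256 and 1085 in liver (−0.55 ± 0.16, adjusted p = 0.175). The shares of all genes are for adjusted p, and none is given for the unadjusted threshold. At 4 h, 9 members rose and 14 fell (31.5% of members, against 46.2% of all genes tested, 16.4% upward and 29.8% downward). At 24 h, 19 rose and 2 fell (28.8% of members, against 47.6% of all genes tested, 23.7% upward and 23.9% downward). At 48 h, 16 rose and 1 fell (23.3% of members, against 47.9% of all genes tested, 25.4% upward and 22.6% downward). The member medians were −0.14, 0.22 and 0.25, against −0.25, 0.00 and 0.04 for all genes tested. The scaled arrays of liver had a median signal of 123 to 139, above all cultures and pellets (85.4 to 113), and centring each array on its median moved the median of all genes by 0.46, 0.42 and 0.39 at 4, 24 and 48 h. The members then gave 16 rises and 1 fall, 39 and 0, and 39 and 0, and their median at 4 h was 0.32. Of the 10650 genes tested, 2878 then rose and 1346 fell at 4 h. At 24 h 4244 rose and 1458 fell, and at 48 h 4319 rose and 1441 fell. Over all genes, the share of higher calls moved from 35.4%, 49.8% and 52.9% of calls to 68.1%, 74.4% and 75%. Relative to the median of all genes, members lay 0.11, 0.22 and 0.21 higher than in liver. Centring cannot change these values, because it shifts all genes of an array alike. With quantile normalization, which can change them, they were −0.06, 0.10 and 0.08, so the sign at 4 h was not settled.

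The members that stood out against liver were largely those already named. Mrps31 (1.64 ± 0.24, adjusted p = 0.000117), Mrpl47 (1.41 ± 0.21, adjusted p = 0.000142) and Mrps6 (1.27 ± 0.23, adjusted p = 0.000553) led the rises at 4 h, which also took in Mrps18b (0.85), Mrpl45 (0.84), Mrps2 (0.77), Mrps7 (0.68), Mrpl17 (0.43) and Mrpl46 (0.36). Of the last 5, Mrpl45 lost its call without rat 2 (adjusted p = 0.0733), Mrps2 without rats 2 and 3 (0.114 and 0.0719), Mrps7 without rats 1 and 2 (0.17 and 0.14), Mrpl17 without each of the 3 rats (0.0854, 0.183 and 0.111) and Mrpl46 without rats 1 and 2 (0.321 and 0.23), and the last 4 also without single liver or 4 h samples. Mrpl34 (−1.24 ± 0.16, adjusted p = 5.99e-05), Mrpl2 (−0.86 ± 0.13, adjusted p = 0.000172) and Mrpl36 (−0.71 ± 0.16, adjusted p = 0.00331) led the falls. After centring the fall of Mrpl34 was −0.78 with an adjusted p of 0.0074, while those of Mrpl2 and Mrpl36 were −0.40 and −0.25 and lost their calls (adjusted p of 0.154 and 0.465). At 24 h Mrps6 (0.95), Mrpl55 (0.88) and Mrpl45 (0.88) rose most, and at 48 h Mrps6 (1.56), Mrpl55 (0.91) and Mrpl49 (0.89). Without rat 2, the 24 h calls of Mrps6 and Mrpl55 had adjusted p values of 0.0965 and 0.0536, and the 48 h call of Mrpl55 had 0.0606. The falls at 24 h were those of Mrps16 (−0.48 ± 0.13, adjusted p = 0.0101) and Mrpl15 (−0.36 ± 0.14, adjusted p = 0.046), which became −0.06 and 0.0535 after centring. The fall of Mrpl34 at 48 h (−0.46 ± 0.16, adjusted p = 0.0345) became −0.06. With the actin ratio as a covariate, 6 rises and no fall were left at 24 h and 4 and 0 at 48 h. Without rats 1 and 2 the 19 rises at 24 h became 8 and 6 (12 without the liver of rat 2) and the 16 at 48 h became 7 and 6. At 4 h the falls were 6 and 5 without rats 1 and 3, and the rises 4 without rat 2 and 5 without its liver sample.

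For 18 genes a further probe set was present, 24 in all. Its difference had the same sign as that of the probe set used in 18 of 24 cases at 4 h vs 0 h, 15 at 24 h vs 0 h, 11 at 48 h vs 0 h and 18 at 24 h vs 4 h. Against liver the count was 13 at 0 h, 15 at 4 h, 15 at 24 h and 11 at 48 h, and it was 16 at 48 h vs 24 h. Among called genes the signs disagreed in Mrpl52 (0.52 at 48 h vs 0 h and 0.38 at 48 h vs Liver, other probe set −0.50 and −0.60), in Mrps14 (0.52 at 24 h vs 0 h and 0.58 at 24 h vs 4 h, other probe set −0.29 and −0.11) and in Mrps24 (0.49 at 24 h vs 4 h, other probe set −0.73). The rises of Mrpl52 and Mrps14 are therefore uncertain, whereas the other probe set of Mrps24 had a mean signal of 43.2, was above the array median on 1 of 43 arrays and did not pass the filter. For Mrps2 at 4 h vs 0 h the 2 other probe sets gave 0.67 and 2.03, both upward. The probe set with 2.03 was above the array median on only 19 of 43 arrays. Its log2 signals were 4.05, 3.85 and 7.46 at 0 h and 7.02, 6.76 and 7.68 at 4 h, so its size is uncertain.

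Of 5 mitochondrial ribosomal proteins tested whose symbols do not follow the pattern, none rose and 1 fell at 4 h vs 0 h, and 2 rose and none fell at 48 h vs 0 h. For all genes tested these shares were 16.3% and 22.6% at 4 h and 26.6% and 17.5% at 48 h. Dap3, a small subunit protein, had 836, 698 and 787 at 4 h, against 952, 943 and 1289 at 0 h (−0.44 ± 0.16, adjusted p = 0.044), and 1508, 1682 and 1575 at 48 h (0.60 ± 0.16, adjusted p = 0.00914). Gadd45gip1, in the large subunit, was higher at 48 h than at 0 h (0.63 ± 0.21, adjusted p = 0.0265). Oxa1l, the insertase that takes nascent chains into the inner membrane and is not itself a ribosomal protein, was lower at 48 h (−0.43 ± 0.13, adjusted p = 0.0147).

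The genes that serve the ribosome were called in both directions. Over all genes tested, 16.3% rose and 22.6% fell at 4 h vs 0 h, and 26.6% rose and 17.5% fell at 48 h vs 0 h. Among 25 genes for its assembly and rRNA modification, 4 rose and 6 fell at 4 h vs 0 h, and 4 rose and 2 fell at 48 h vs 0 h. Mrm1, a methyltransferase of the large rRNA, was higher at 48 h (0.79 ± 0.24, adjusted p = 0.0162, at signals of 57.9, 58.0 and 83.4, below the array medians), and the assembly factor Rbfa (−1.05 ± 0.25, adjusted p = 0.00416) and the pseudouridine synthase family member Rpusd3 (−0.76 ± 0.15, adjusted p = 0.000959) were lower. Of 14 mitochondrial translation factors 7 fell and none rose at 4 h vs 0 h, and 3 fell at 48 h vs 0 h: the initiation factor Mtif2 (−0.81 ± 0.31, adjusted p = 0.0469), the mRNA-binding Lrpprc (−0.79 ± 0.15, adjusted p = 0.000917) and the elongation factor Gfm1 (−0.45 ± 0.16, adjusted p = 0.0345). Of 13 mitochondrial tRNA synthetases 1 rose and 2 fell at 4 h, and 1 rose and 1 fell at 48 h vs 0 h. Cars2, which charges the cysteine tRNA, had 257, 194 and 168 at 48 h, against 625, 496 and 690 at 0 h (−1.56 ± 0.20, adjusted p = 4.15e-05), and Iars2, which charges the isoleucine tRNA, was higher (0.63 ± 0.21, adjusted p = 0.0289). Of 14 genes for mitochondrial transcription and DNA maintenance 2 rose and 5 fell at 4 h, and 3 fell at 48 h: the RNA polymerase Polrmt (−1.03 ± 0.15, adjusted p = 0.000129), the polymerase subunit Polg2 (−0.97 ± 0.28, adjusted p = 0.0127) and the helicase Twnk (−0.72 ± 0.17, adjusted p = 0.00452). Before this fall Polg2 was far above 0 h, with 4332, 5897 and 4628 at 4 h, against 1578, 828 and 911 at 0 h.

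Of 10 regulators of mitochondrial biogenesis tested, 6 rose and 1 fell at 4 h vs 0 h (16.3% and 22.6% of all genes tested), with a median of 0.72. Pprc1, a coactivator of the PGC-1 family that is induced by growth signals, had 1034, 1140 and 1060 at 4 h, against 330, 182 and 300 at 0 h (2.04 ± 0.20, adjusted p = 5.55e-06), and 435, 402 and 435 at 48 h. The other rises were in the nuclear receptors Ppara (1.74 ± 0.59, adjusted p = 0.0326) and Esrra (0.92 ± 0.23, adjusted p = 0.00618) and in the transcription factors Myc (1.11 ± 0.36, adjusted p = 0.026), Yy1 (0.75 ± 0.18, adjusted p = 0.00474) and Nrf1 (0.69 ± 0.21, adjusted p = 0.0174). Ppara had 60.0, 87.6 and 122 at 0 h, where the array medians were 113, 87.5 and 96.6, and 230, 283 and 371 at 4 h. In every sample of liver, 24 h and 48 h it was below the array median. Gabpb1, a subunit of the ETS factor GABP, had 315, 347 and 348 at 4 h, against 427, 655 and 544 at 0 h (−0.67 ± 0.15, adjusted p = 0.00379), and 545, 521 and 513 at 24 h. Its partner Gabpa was not called at 4 h (0.14 ± 0.25, adjusted p = 0.686) and was lower at 48 h than at 0 h (−0.74 ± 0.25, adjusted p = 0.0264). Ppargc1a, the best known coactivator of this family, had 103, 65.0 and 98.2 at 4 h, against 135, 79.4 and 223 at 0 h (−0.62 ± 0.36, adjusted p = 0.193), and Ppargc1b fell by 48 h (−0.58 ± 0.18, adjusted p = 0.0162).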

How the data were processed

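The 43 RG230-2 arrays carried total RNA of 15 samples (5 groups, 3 rats each, up to 3 technical arrays per sample). The deposited values are linear signal intensities computed by the authors with MAS5 and scaled to a trimmed mean of 500 (2% trimmed here reproduced 500 on every array). Whether Command Console or the affy package produced them could not be settled. The authors left out 1 array of 4 h (rat 3) and 1 of 48 h (rat 2). No array image or probe-level value was used here.

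Of 31099 probe sets, 57 controls and 436 with several genes were set aside, and 20832 had 1 gene in the platform annotation. Signals were log2 transformed, technical arrays were averaged, probe sets above the median of the array in at least 10% of arrays (5 of 43) were kept, and each gene was represented by its brightest probe set (10650 genes). All 15 samples were fitted together with limma 3.58.1 in R 4.3.3 (lmFit, eBayes, no term for the rat), and p-values were adjusted by Benjamini-Hochberg over all genes within each of 9 comparisons. The comparisons share samples, since 4, 24 and 48 h were set against the same 0 h and liver samples. Members and gene lists were chosen with earlier results of these data known. Named are, per comparison, the 3 largest rises and falls among called members that moved the same way in all 3 rats, members of the stalk, exit tunnel, central protuberance and S18 lists, those with the highest and lowest mean signal, up to 3 genes of each related list at 48 h vs 0 h, the regulators, and members that moved against the majority; other members were named after their values were seen.

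The same rat gave all 5 groups, so numbers pair the samples: deviations from group means correlated with a median r of 0.34 over 30 pairs from the same rat and −0.18 over 60 pairs from different rats. Alternatives were quantile normalization, centring of each array on its median, an offset of 32, no filter and one at 50%, the mean of all probe sets of a gene, technical arrays with the sample as a random block, the rat as a block, only the groups compared, the actin ratio as a covariate, a trended robust prior, a fold of 1.5 with an unadjusted p of 0.05, and leaving out each rat or single sample. Promoters were read from RefSeq tables of GRCr8 and matched by symbol or gene ID.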

Additional observations from a re-analysis of the deposited data

How the results depend on the processing

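The 18 counts of members called higher or lower in the 9 comparisons stayed within 1.5 times under an offset of 32, the stricter filter and the trended robust prior. With quantile normalization the falls became 5 (24 h vs Liver), 3 (48 h vs Liver) and 3 (48 h vs 0 h). With each array centred on its median, 4 h vs Liver gave 16 rises and 1 fall, 24 h vs Liver 39 and 0, 48 h vs Liver 39 and 0, the falls at 4 h vs 0 h were 5, those at 24 h and 48 h vs 0 h were 0, and the rises at 24 h vs 4 h were 14. Over the 10650 genes tested, centring gave 2878, 4244 and 4319 rises at 4, 24 and 48 h vs Liver. The falls over all genes were then 1583, 1577 and 1645 at 4, 24 and 48 h vs 0 h. At 24 h vs 4 h 2146 genes rose. With no filter the falls were 1 (24 h vs Liver), 0 (48 h vs Liver) and 0 (48 h vs 0 h), and with the mean of all probe sets 2 (48 h vs Liver). Technical arrays with the sample as a random block gave 25 rises and 3 falls at 48 h vs Liver, 20 and 5 at 48 h vs 0 h, and 2 and 2 at 48 h vs 24 h. With only the groups compared in the fit, the falls were 9, 1 and 0 at 4, 24 and 48 h vs Liver, 24 h vs 0 h gave 7 rises and 0 falls, and 48 h vs 0 h 0 falls. With the actin ratio as a covariate, 4 h vs Liver had 9 falls, 24 h vs Liver 6 rises and 0 falls, 48 h vs Liver 4 and 0, 24 h vs 0 h 4 and 1, and 48 h vs 0 h 4 and 0. A fold of 1.5 with an unadjusted p of 0.05 gave 7, 0 and 0 falls at 4, 24 and 48 h vs Liver, 0 falls at 24 h and 48 h vs 0 h, 16 rises at 24 h vs 4 h and 1 rise at 48 h vs 24 h. The cause of these shifts was not tested.

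With the rat as a replicate block, the count at 48 h vs 24 h became 1 (Mrps6); in the other comparisons the block moved no count by over 1.5 times, and over all members 32 calls were gained and 0 lost.

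Leaving out 1 rat or 1 sample gave these ranges of rises and falls: 4 to 12 and 5 to 14 at 4 h vs Liver, 6 to 24 and 0 to 2 at 24 h vs Liver, 6 to 20 and 0 to 2 at 48 h vs Liver, 4 to 7 and 4 to 13 at 4 h vs 0 h, 5 to 14 and 0 to 2 at 24 h vs 0 h, 5 to 17 and 0 to 1 at 48 h vs 0 h, 11 to 26 and 1 to 3 at 24 h vs 4 h, and 0 and 0 to 1 at 48 h vs 24 h (1 without the 24 h sample of rat 2). At 0 h vs Liver both counts were 0 throughout. Fits without a whole rat have 2 samples a group.

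Directions reversed for Mrps16 (0.0675) and Mrps21 (0.0178) at 4 h vs Liver and for Mrpl15 (0.0535) at 24 h vs Liver after centring, and for Mrpl52 (−0.11) at 48 h vs Liver with the mean of its probe sets. The lowest signal of a member in any sample was 320, above the array median, and the 3 rats a group limit the precision.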
